A study of Mus musculus with 32 samples.

Results

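The genes that break down, carry and burn dietary sugar in the intestine were followed through small intestines of mice that lacked the fatty acid binding protein Fabp2, the bile acid binding protein Fabp6, or both. The set held 9 genes, taken by name: the disaccharidases *Lct*, *Sis* and *Treh*, the sugar transporters *Slc5a1*, *Slc5a4a*, *Slc2a2* and *Slc2a5*, and the fructose enzymes *Khk* and *Tkfc* (*Dak* in older annotation). Every probe set that the platform annotation assigned to 1 of these genes was used. This gave 9 probe sets for 8 of the 9 genes, all on the 430A chip and 0 on the 430B chip, out of 18195 genes measured on either chip. *Sis* had no assigned probe set and is named only.

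Affymetrix expression arrays were hybridised with total RNA of the whole small intestine, taken between the stomach and the cecum from fasted littermates on standard chow. The mice were 10 weeks old and of the C57BL/6J strain, in 8 groups: *Fabp2*-/-;*Fabp6*-/-, *Fabp6*-/-, *Fabp2*-/- and wild-type (WT) mice, each as females and as males. Each group had 2 pools of RNA, each pool from 2 mice, and each pool was run on both chips, so that 16 pools gave 32 arrays. The spread between 2 pools of a group is therefore a spread between pools and not between mice, the disruptions were carried by the whole animal, and in RNA of a whole organ fewer cells of a type and less RNA per cell cannot be told apart.

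Lactase, sucrase-isomaltase and trehalase are anchored in the brush border of enterocytes, where they split lactose, sucrose and trehalose into single sugars. Glucose and galactose enter the enterocyte with sodium through SGLT1 (*Slc5a1*), fructose enters through GLUT5 (*Slc2a5*), and GLUT2 (*Slc2a2*) passes all of them to the blood. Inside the cell, ketohexokinase (*Khk*) phosphorylates fructose, aldolase B splits the product, and triokinase (*Tkfc*) phosphorylates the glyceraldehyde that is released. Lactase is most abundant in the jejunum, and CDX2, GATA and HNF1 factors are known to act on its promoter.

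All values are the log2 RMA signals deposited for the arrays, so a difference of 1 is a doubling of signal, and levels are compared between groups for a probe set and never between probe sets. A gene was called where limma gave a Benjamini-Hochberg adjusted p, or false discovery rate (FDR), under 0.2 over all genes of a chip and a log2 fold change over 0.5 in size. The medians of the arrays spanned 6.57 to 6.62 (430A) and 5.89 to 5.92 (430B), and the absorptive enterocyte markers (10 of 10 measured) averaged 11.34 to 11.54 in every pool, with *Apob* (0.66, adjusted p = 0.00121) and *Mep1a* (0.58, adjusted p = 0.00453) called higher in *Fabp2*-/-;*Fabp6*-/- than in WT males. The *Fabp2* probe set read 8.98 to 9.98 in pools of disrupted mice, against 12.58 to 13.05 in pools with an intact gene. *Fabp6* read 4.80 to 5.04 in 7 of the 8 disrupted pools, against 10.50 to 11.32 in intact pools. The library labelled *Fabp6*-/- female replicate 2 went against its label, with a *Fabp6* signal of 9.21, which in linear signal is 32.9% of the mean of WT females. Calls of named genes that its group enters are given with and without it.

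Lactase was female-biased in *Fabp6*-/- mice. *Lct* lies at chr1:128284756-128328318 (RefSeq annotation of GRCm38.p6, minus strand) and was read by 1 probe set. Its signals were 11.63 and 11.67 in *Fabp6*-/- females, against 11.02 and 10.99 in *Fabp6*-/- males. In *Fabp2*-/- mice they were 11.43 and 11.59 in females, against 11.01 and 11.19 in males. WT females had 11.59 and 11.40, against 11.13 and 11.15 in WT males. In these 3 genotypes every female pool (11.40 to 11.67) lay above every male pool (10.99 to 11.19). Within a single genotype, both female pools lay above both male pools for 12% of genes in *Fabp6*-/-, 17.9% in *Fabp2*-/- and 16.6% in WT mice. The share of genes with the separation over these 3 genotypes together, which were picked after seeing the values, was not counted. The *Fabp2*-/-;*Fabp6*-/- pools broke the pattern, with 11.64 and 11.53 in females, against 11.35 and 11.60 in males.

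The 150 bases before the annotated start of *Lct* are shown because the regulation of this promoter is well described. The sequence is from RefSeq, at chr1:128328319-128328468 of GRCm38.p6, written 5′ to 3′ on the strand of the gene. Capitals mark the CDX core TTTAT and the GATA core GATAA, each searched on both strands, and where they overlap the run of capitals holds both.
*Lct*: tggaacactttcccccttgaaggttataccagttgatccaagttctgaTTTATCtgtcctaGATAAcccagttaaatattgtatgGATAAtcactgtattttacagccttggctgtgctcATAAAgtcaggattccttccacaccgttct
The CDX core began 102 and 30 bases before the start and the GATA core 101, 89 and 65 bases before it. Of 27025 RefSeq promoter windows of this length, 24.8% held the CDX core and 13.6% the GATA core. Among the 9 sugar genes only *Lct* and *Sis* held the CDX core and only *Lct* the GATA core. The letters ATTAAC (an HNF1 half-site, in 3.76% of windows, either strand) were found in the window of *Khk*, and CACGTG (an E-box, in 4.3%) in those of *Khk* and *Slc5a1*. The *Khk* window (chr5:30921409-30921558) runs into the annotated span of the gene, which begins at 30921436. A match to such short letters is a description of the sequence and no evidence of binding.

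The female to male difference in *Lct* was 0.64 on the log2 scale in *Fabp6*-/- mice (SE 0.11, 95% interval 0.42 to 0.87, adjusted p = 0.0135), a signal 56.3% higher in females. Without the pool labelled *Fabp6*-/- female replicate 2 it was 0.62 (adjusted p = 0.0441). It was 0.41 in *Fabp2*-/- mice (adjusted p = 0.328), 0.35 in WT mice (adjusted p = 0.364) and 0.11 in *Fabp2*-/-;*Fabp6*-/- mice (adjusted p = 0.818), none of them called. Averaged over the 4 genotypes it was 0.38 (SE 0.05, 95% interval 0.27 to 0.49, adjusted p = 0.00113), which passed the FDR threshold and was under the limit of 0.5 on the change, and 0.38 without that pool (adjusted p = 0.00223). The sex differences of the disrupted genotypes were not told apart from that of WT mice: the difference between them was 0.29 for *Fabp6*-/- (95% interval -0.02 to 0.61, and 0.27 without that pool) and -0.24 for *Fabp2*-/-;*Fabp6*-/- mice (95% interval -0.55 to 0.08).

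Ordered by mean signal, *Lct* was highest in *Fabp6*-/- females (11.65 ± 0.03, SD, n = 2 pools here and below), then in *Fabp2*-/-;*Fabp6*-/- females (11.59 ± 0.07), *Fabp2*-/- females (11.51 ± 0.11), WT females (11.49 ± 0.14) and *Fabp2*-/-;*Fabp6*-/- males (11.47 ± 0.18). After a gap came WT males (11.14 ± 0.01), *Fabp2*-/- males (11.10 ± 0.12) and *Fabp6*-/- males (11.01 ± 0.02). That gap was the only step between neighbours at which the pools did not overlap. In males, *Fabp2*-/-;*Fabp6*-/- exceeded WT by 0.33 (95% interval 0.11 to 0.55, adjusted p = 0.135), which was under the limit on the change. Lactase therefore passed the call threshold in 1 of the 20 comparisons.

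Trehalase, which splits the mushroom and insect sugar trehalose, passed the call threshold in none of the comparisons. *Treh* (chr9:44673233-44686305) read 10.23 and 10.36 in *Fabp2*-/-;*Fabp6*-/- females and 10.30 and 10.39 in *Fabp2*-/-;*Fabp6*-/- males, against 10.16 and 10.33 in WT females and 10.01 and 10.04 in WT males. The double disruption had the highest signal in males, and its female pools overlapped those of WT. The male difference was 0.32 (95% interval 0.10 to 0.55, adjusted p = 0.158). Over both sexes *Fabp2*-/-;*Fabp6*-/- exceeded *Fabp2*-/- by 0.27 (95% interval 0.11 to 0.43, adjusted p = 0.0477), with 10.32 ± 0.07 against 10.05 ± 0.16 (SD, n = 4 pools each). The 4 double disrupted pools (10.23 to 10.39) lay above the 4 *Fabp2*-/- pools (9.81 to 10.15), as was the case for 5.77% of genes in that comparison.

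Maltase-glucoamylase, the other starch-digesting enzyme of the brush border, belongs to the same class. *Mgam* was read on 430B between 11.35 and 11.81, and its largest same-sex difference was -0.40 in *Fabp2*-/- males against WT males (adjusted p = 0.135). Of the list of other glycosidases and amylases, 5 of 8 genes were measured, and 0 were called higher or lower in any of the 20 comparisons.

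**Figure D1:**
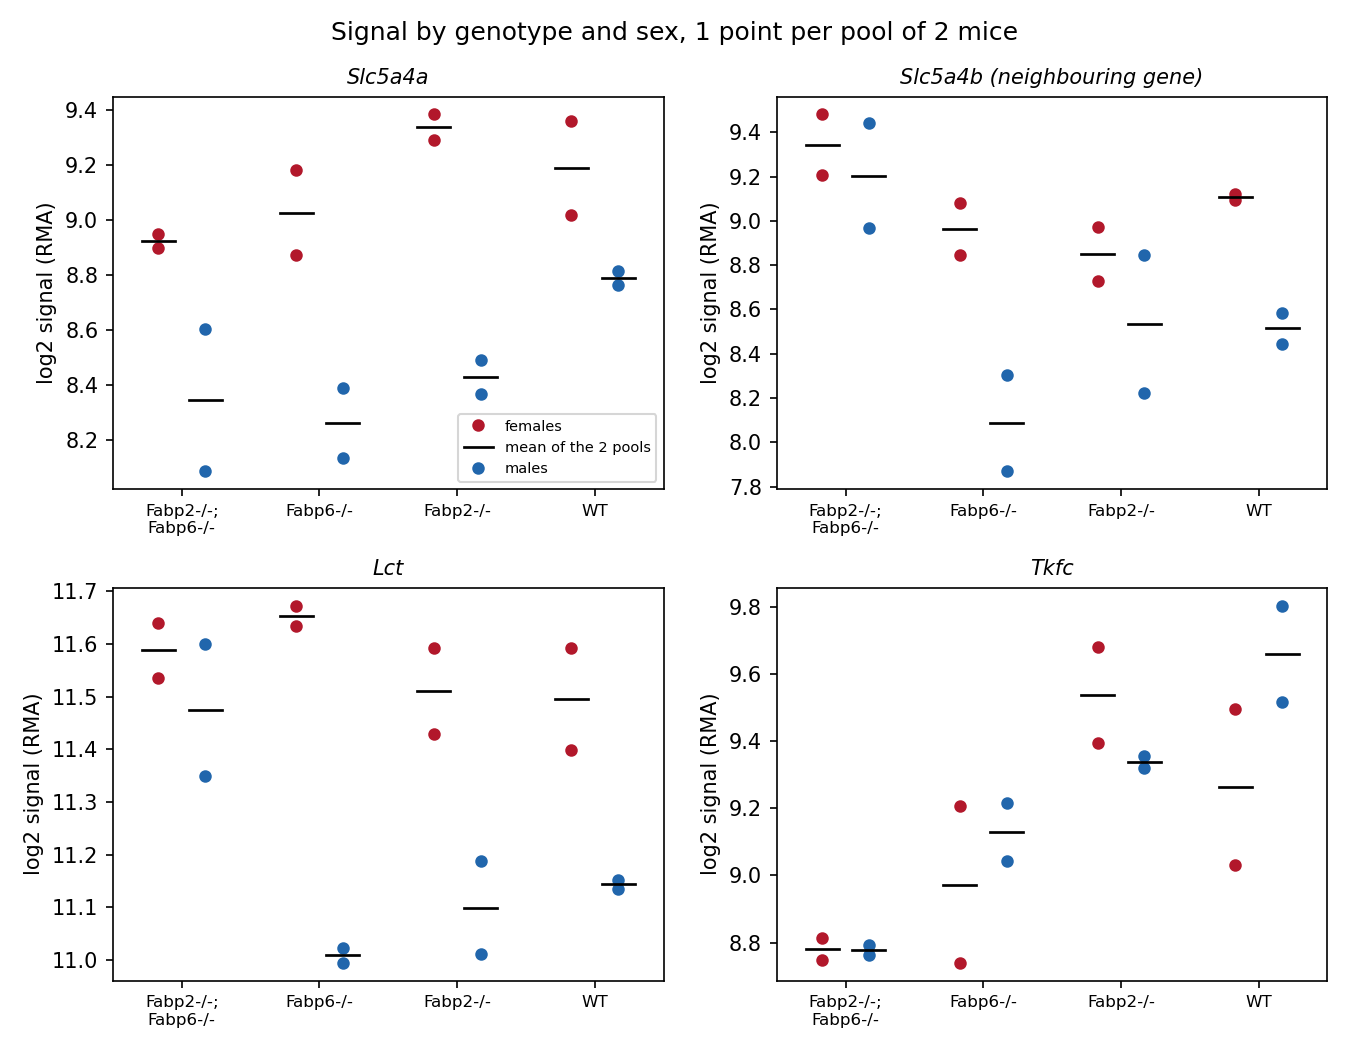
log2 RMA signal (y axis) of *Slc5a4a*, *Slc5a4b*, *Lct* and *Tkfc* in each RNA pool of the 4 genotypes (x axis). Points are pools, females in red to the left of males in blue, and black lines are means of 2 pools: *Slc5a4a* pools span 8.87 to 9.38 in females, against 8.09 to 8.81 in males.

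Among the 4 transporters, *Slc5a4a* had the largest sex difference. Together with its neighbour *Slc5a4b* it forms a rodent pair of SGLT3 genes, relatives of the sodium-glucose cotransporter SGLT1, and human SGLT3 is known as a glucose sensor more than a carrier. *Slc5a4a* lies at chr10:76147451-76189265 and *Slc5a4b* beside it at chr10:76058618-76111018, on the opposite strand. *Slc5a4a* read 8.95 and 8.90 in *Fabp2*-/-;*Fabp6*-/- females, against 8.09 and 8.60 in the males. It read 8.87 and 9.18 in *Fabp6*-/- females, against 8.14 and 8.39 in the males. *Fabp2*-/- females had 9.29 and 9.38, against 8.37 and 8.49 in *Fabp2*-/- males. In WT mice the 2 female pools had 9.36 and 9.02, against 8.81 and 8.76 in males.

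The 8 female pools of *Slc5a4a* (lowest 8.87, median 9.10, highest 9.38) thus all lay above the 8 male pools (lowest 8.09, median 8.44, highest 8.81). Of 12394 genes tested on the chip, 5 (0.0403%) had every female pool above every male pool. Averaged over genotypes, *Slc5a4a* was 0.66 higher in females (SE 0.08, 95% interval 0.50 to 0.82, adjusted p = 0.000152), or 58.2% in signal. It was the only sugar gene of the 8 measured that was called in this comparison, in which 0.25% of all genes were called. Without the pool labelled *Fabp6*-/- female replicate 2 the difference was 0.62 (adjusted p = 0.000419).

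Within single genotypes, *Slc5a4a* was called higher in *Fabp2*-/- females than males (0.91, SE 0.15, adjusted p = 0.0245) and in *Fabp6*-/- females than males (0.76, SE 0.15, adjusted p = 0.0422). The background share of genes called was 0.121% in *Fabp2*-/- and 0.557% in *Fabp6*-/- mice, where *Lct* was the other sugar gene called. The difference was 0.58 in *Fabp2*-/-;*Fabp6*-/- mice (adjusted p = 0.399) and 0.40 in WT mice (adjusted p = 0.606), neither of them called, in comparisons with 0.113% and 0.323% of genes called. Single pools decided the calls: the *Fabp2*-/- call was lost without *Fabp2*-/- male replicate 1 (0.84, adjusted p = 0.414) or female replicate 2 (0.86, adjusted p = 0.349). The *Fabp6*-/- call was lost without *Fabp6*-/- male replicate 1 (0.64, adjusted p = 0.705) and kept without the pool labelled *Fabp6*-/- female replicate 2 (0.61, adjusted p = 0.172). Without *Fabp2*-/-;*Fabp6*-/- male replicate 2 the double disruption was called as well (0.83, adjusted p = 0.0965).

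The order of *Slc5a4a* group means ran through all 4 female groups before the first male group. It was 9.34 ± 0.07 in *Fabp2*-/- females, 9.19 ± 0.24 in WT females, 9.03 ± 0.22 in *Fabp6*-/- females and 8.92 ± 0.04 in *Fabp2*-/-;*Fabp6*-/- females. WT males followed with 8.79 ± 0.03, then *Fabp2*-/- males (8.43 ± 0.09), *Fabp2*-/-;*Fabp6*-/- males (8.35 ± 0.36) and *Fabp6*-/- males (8.26 ± 0.18). Only WT males were separated from both neighbours in this order. All other neighbouring groups overlapped.

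*Slc5a4a* was lower in *Fabp6*-/- than in WT males, just past the threshold. The *Fabp6*-/- males were 0.53 below WT males (SE 0.15, 95% interval -0.85 to -0.21, adjusted p = 0.199), and *Slc5a4a* was the 1 sugar gene called of 8, beside 0.492% of all genes. This call was lost in 13 of 28 alternative settings, over which the change ranged between -0.65 and -0.40. Leaving out *Fabp6*-/- male replicate 1 (-0.40) or 2 (-0.65), or WT male replicate 1 (-0.50) or 2 (-0.55), ended it, as did leaving out either pool of *Fabp2*-/- males (adjusted p = 0.204) or of *Fabp2*-/-;*Fabp6*-/- females (adjusted p = 0.244), which enter only through the shared spread. *Fabp2*-/-;*Fabp6*-/- males were 0.44 below WT males (adjusted p = 0.171) and *Fabp2*-/- males 0.36 below (adjusted p = 0.564), neither called, although without *Fabp2*-/-;*Fabp6*-/- male replicate 2 the double disruption was called (-0.70, adjusted p = 0.0400). In females no disruption was called against WT, with differences of -0.27 in *Fabp2*-/-;*Fabp6*-/-, -0.16 in *Fabp6*-/- and 0.15 in *Fabp2*-/- mice.

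*Slc5a4b* was called higher in double disrupted than in WT males. It read 9.21 and 9.48 in *Fabp2*-/-;*Fabp6*-/- females and 8.97 and 9.44 in the males, 9.08 and 8.84 in *Fabp6*-/- females and 7.87 and 8.31 in the males, 8.97 and 8.73 in *Fabp2*-/- females and 8.22 and 8.85 in the males, and 9.09 and 9.12 in WT females and 8.59 and 8.45 in the males. In males both pools of the double disruption lay above both WT pools, as for 24.3% of genes. Both pools of *Fabp6*-/- males lay below both WT pools, as for 21.8% of genes (difference -0.43, adjusted p = 0.502, not called). *Slc5a4b* rose by 0.69 in *Fabp2*-/-;*Fabp6*-/- males against WT males (SE 0.19, adjusted p = 0.0800), and over both sexes it exceeded *Fabp6*-/- by 0.75 (adjusted p = 0.00274, and 0.69 without the pool that goes against its label) and *Fabp2*-/- by 0.58 (adjusted p = 0.0173). It was female-biased in *Fabp6*-/- mice (0.88, adjusted p = 0.0715), and its mean sex difference of 0.48 (adjusted p = 0.0193) was under the limit on the change, but 0.51 and called without that pool (adjusted p = 0.0151). The call in *Fabp2*-/-;*Fabp6*-/- males was lost without WT male replicate 1 (0.76) or 2 (0.62) or *Fabp2*-/-;*Fabp6*-/- male replicate 2 (0.45), and that against *Fabp2*-/- mice without *Fabp2*-/- male replicate 1 (0.43) or *Fabp2*-/-;*Fabp6*-/- male replicate 2 (0.46). The *Fabp6*-/- sex difference lost its call without *Fabp6*-/- male replicate 1 (0.66), likewise without female replicate 1 (0.76), and was 0.99 without the pool labelled *Fabp6*-/- female replicate 2 (adjusted p = 0.0793). The non-additive effect of losing both proteins is the change beyond the sum of those of the single disruptions. For *Slc5a4b* it was 0.87 and called (adjusted p = 0.0222), beside 1.73% of genes. With 1 pool left out it ran from 0.71 to 1.03, with 0.81 without the pool that goes against its label. Whether the changes of this pair differed from each other, and whether their probes bind each other's transcript, was not tested.

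The windows before both starts are set side by side because the genes are neighbours of 1 family. They are from RefSeq, GRCm38.p6, each on its own strand, with capitals as for *Lct*: *Slc5a4a* at chr10:76147301-76147450 and *Slc5a4b* at chr10:76111019-76111168.
*Slc5a4a*: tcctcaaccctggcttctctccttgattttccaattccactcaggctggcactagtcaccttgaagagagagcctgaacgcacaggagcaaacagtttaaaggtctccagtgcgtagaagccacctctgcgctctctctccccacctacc
*Slc5a4b*: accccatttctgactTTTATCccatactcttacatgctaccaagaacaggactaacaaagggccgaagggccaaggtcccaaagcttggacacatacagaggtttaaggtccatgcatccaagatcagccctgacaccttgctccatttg
*Slc5a4b* held the overlapping CDX and GATA cores 135 bases and 134 bases before its start, and *Slc5a4a* held neither set of letters in this window.

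The main carriers of the brush border and of the basolateral membrane passed the call threshold in none of the 20 comparisons. *Slc5a1* (chr5:33104219-33162699), which encodes SGLT1, was read by 2 probe sets that correlated over the 16 pools (Pearson r = 0.74, a description over pools that share groups). The probe set with the larger spread read 10.08 and 9.80 in *Fabp2*-/-;*Fabp6*-/- females and 9.93 and 10.41 in the males, against 10.15 and 10.24 in WT females and 9.81 and 10.41 in WT males. It read 10.26 and 9.82 in *Fabp6*-/- females and 9.83 and 9.84 in the males, and 10.12 and 9.80 in *Fabp2*-/- females and 10.17 and 9.87 in the males. Pools of 1 group differed by as much as the groups did in this probe set, and the mean sex difference was 0.00 (95% interval -0.20 to 0.21). The other probe set stayed between 11.79 and 12.26. In males it read 11.88 and 11.95 in *Fabp6*-/- and 11.93 and 11.79 in *Fabp2*-/- mice, against 12.05 and 12.26 in WT mice. Both single disruptions lay below WT there, as for 21.8% of genes in *Fabp6*-/- and 20% in *Fabp2*-/- males. This probe set was not in the main fit, which kept 1 probe set per gene. In a separate limma fit over all probe sets of the chip assigned to 1 gene, the differences were -0.24 in *Fabp6*-/- (adjusted p = 0.582) and -0.30 in *Fabp2*-/- males (adjusted p = 0.485). Neither was called.

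GLUT5, the fructose carrier, behaved likewise. *Slc2a5* (chr4:150119344-150144168) read 9.23 and 8.96 in *Fabp2*-/-;*Fabp6*-/- females and 8.85 and 9.21 in the males, against 9.30 and 8.95 in WT females and 9.09 and 9.52 in WT males. The widest gap within a group was that of *Fabp6*-/- females, with 9.66 and 8.83, the lower one in the pool that goes against its label. *Fabp6*-/- males had 9.05 and 9.26, *Fabp2*-/- females 9.39 and 9.11, and *Fabp2*-/- males 9.19 and 9.21. The mean female to male difference was 0.01 (95% interval -0.22 to 0.23), an interval that holds no change as large as the limit of 0.5. In *Fabp2*-/-;*Fabp6*-/- males against WT males it was -0.28 (95% interval -0.73 to 0.18), which leaves a change past that limit possible.

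*Slc2a2* (chr3:28697903-28728361), which encodes GLUT2, read 10.26 and 9.99 in *Fabp6*-/- females and 9.88 and 9.85 in the males, and 10.38 and 10.36 in *Fabp2*-/- females and 9.94 and 10.05 in the males, against 10.17 and 10.09 in WT females and 10.13 and 10.38 in WT males. The male pools of both single disruptions lay below those of WT, as for 21.8% of genes in *Fabp6*-/- and 20% in *Fabp2*-/- males, without a call: -0.38 for *Fabp6*-/- (95% interval -0.70 to -0.07, adjusted p = 0.408) and -0.26 for *Fabp2*-/- (95% interval -0.57 to 0.05, adjusted p = 0.728). The *Fabp2*-/-;*Fabp6*-/- females had 10.13 in both pools, while the males had 9.72 and 10.34. The male comparison of the double disruption with WT therefore hung on single pools: -0.22 with both (adjusted p = 0.541), 0.084 without *Fabp2*-/-;*Fabp6*-/- male replicate 1 and -0.53 without replicate 2 (adjusted p = 0.0726).

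**Figure D2:**
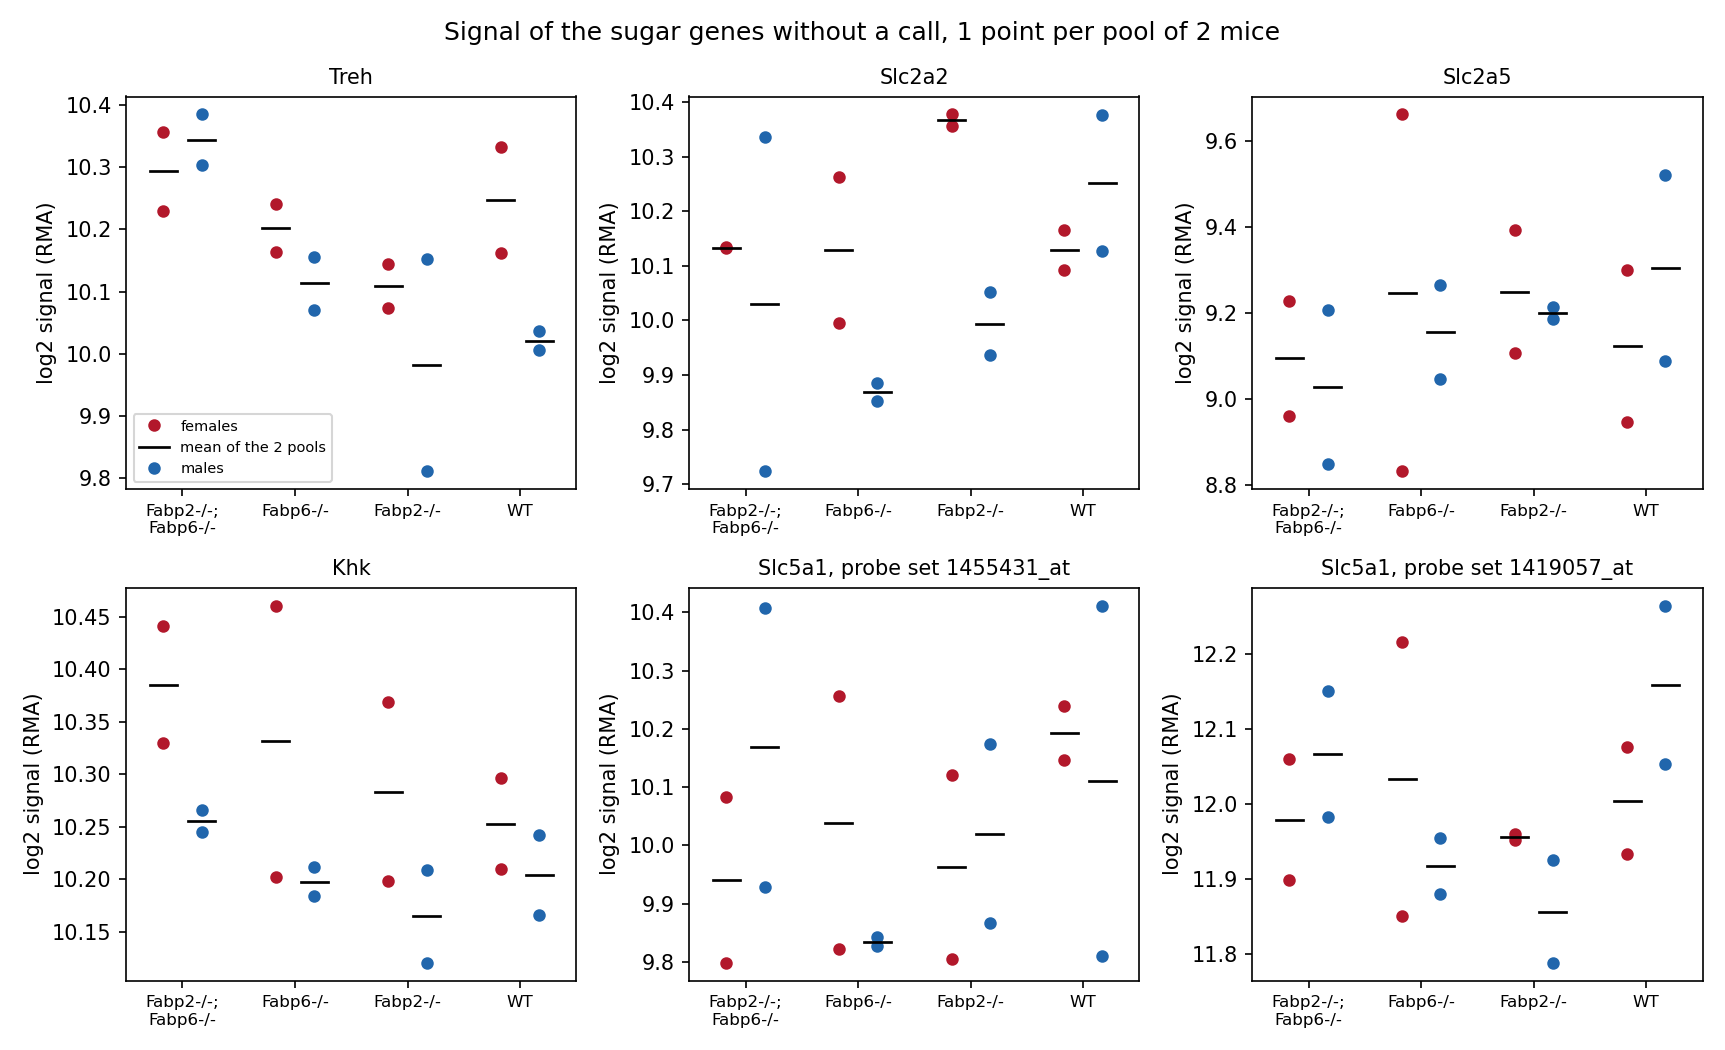
log2 RMA signal (y axis) of *Treh*, *Slc2a2*, *Slc2a5*, *Khk* and both *Slc5a1* probe sets in each RNA pool of the 4 genotypes (x axis), females in red to the left of males in blue, with black lines for means of 2 pools. *Khk* stays between 10.12 and 10.46 in all 16 pools, and the pools of 1 group often lie as far apart as the groups.

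Of the fructose enzymes, triokinase fell in mice that lacked both binding proteins. *Tkfc* (chr19:10592197-10605482, minus strand) read 8.81 and 8.75 in *Fabp2*-/-;*Fabp6*-/- females, against 9.03 and 9.50 in WT females. In males it read 8.79 and 8.76 in *Fabp2*-/-;*Fabp6*-/- mice, against 9.52 and 9.80 in WT mice. The 4 double disrupted pools lay within 8.75 to 8.81 and below all 4 WT pools. The single disruptions had 9.21 and 8.74 in *Fabp6*-/- females, 9.04 and 9.22 in *Fabp6*-/- males, 9.68 and 9.39 in *Fabp2*-/- females, and 9.32 and 9.36 in *Fabp2*-/- males. By genotype the signal was 8.78 ± 0.03 in *Fabp2*-/-;*Fabp6*-/-, 9.05 ± 0.22 in *Fabp6*-/-, 9.44 ± 0.17 in *Fabp2*-/- and 9.46 ± 0.32 in WT mice (SD, n = 4 pools each).

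In males *Tkfc* fell by 0.88 on the log2 scale in *Fabp2*-/-;*Fabp6*-/- against WT mice (SE 0.16, 95% interval -1.21 to -0.55, adjusted p = 0.00539). On the linear scale its signal fell by 45.7%. It was the 1 sugar gene of 8 called there, beside 2.03% of all genes, and the call held in all 28 alternative settings (-1.03 to -0.74). In females the difference was -0.48 (SE 0.16, adjusted p = 0.199), under the FDR threshold and short of the limit of 0.5, and the call was made without WT female replicate 1 (-0.72, adjusted p = 0.139). Whether the male and female changes differed was tested: the difference was 0.40 (95% interval -0.07 to 0.87, adjusted p = 0.632), which was not called. In the female comparison 1.03% of genes were called, and 0 of the 8 sugar genes.

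Over both sexes, *Tkfc* in *Fabp2*-/-;*Fabp6*-/- mice fell by 0.68 against WT mice (SE 0.11, adjusted p = 0.00159) and by 0.66 against *Fabp2*-/- mice (SE 0.11, adjusted p = 0.00203). It was the 1 sugar gene called in each, beside 1.16% and 1.22% of all genes. Lower pools with no overlap, as *Tkfc* had in both, were found for 4.71% and 4.12% of genes. Against *Fabp6*-/- mice the difference was -0.27 (95% interval -0.51 to -0.04, adjusted p = 0.185), and -0.39 without the pool labelled *Fabp6*-/- female replicate 2 (adjusted p = 0.0395), under the limit on the change both times. *Fabp6*-/- males were 0.53 below WT males (adjusted p = 0.205), just outside the FDR threshold, and this was called in 9 of 28 alternative settings, 6 of them with 1 female pool of another group left out and the value unchanged. Over both sexes *Fabp6*-/- was 0.41 below WT (adjusted p = 0.0757), or 0.29 without that pool (adjusted p = 0.165), and it was called without *Fabp6*-/- female replicate 1 (-0.53) or WT female replicate 1 (-0.53).

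*Tkfc* had no common sex difference (mean -0.09). WT females were 0.40 below WT males (adjusted p = 0.637), while *Fabp2*-/- females had pools above those of the males, as for 17.9% of genes. The change in the sex difference with loss of Fabp2 was 0.60 (95% interval 0.13 to 1.07, adjusted p = 0.939). In the order of group means, WT males (9.66 ± 0.20), *Fabp2*-/- females (9.54 ± 0.20), *Fabp2*-/- males (9.34 ± 0.02), WT females (9.26 ± 0.33), *Fabp6*-/- males (9.13 ± 0.12), *Fabp6*-/- females (8.97 ± 0.33) and the female (8.78 ± 0.05) and male (8.78 ± 0.02) *Fabp2*-/-;*Fabp6*-/- groups followed each other. Pools of neighbours overlapped except between the *Fabp2*-/- females and males.

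The 150 bases before the start that RefSeq lists for *Tkfc* are given because it had the largest fall among these genes, at chr19:10604259-10604408 of GRCm38.p6. They lie inside the annotated span of the gene, on its strand.
*Tkfc*: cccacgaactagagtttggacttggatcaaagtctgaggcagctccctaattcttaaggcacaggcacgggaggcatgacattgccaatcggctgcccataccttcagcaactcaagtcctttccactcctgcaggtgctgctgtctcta
None of the 4 sets of letters searched was present in this window.

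*Khk*, which commits fructose to breakdown, was the steadiest of these genes. It read 10.33 and 10.44 in *Fabp2*-/-;*Fabp6*-/- females and 10.27 and 10.25 in the males, 10.46 and 10.20 in *Fabp6*-/- females and 10.21 and 10.18 in the males, 10.37 and 10.20 in *Fabp2*-/- females and 10.12 and 10.21 in the males, and 10.30 and 10.21 in WT females and 10.17 and 10.24 in the males. No pool left the range of 10.12 to 10.46. The mean female to male difference of *Khk* (chr5:30921436-30931248) was 0.11 (95% interval 0.00 to 0.21, adjusted p = 0.444). In *Fabp2*-/-;*Fabp6*-/- against WT mice of both sexes it was 0.09 (95% interval -0.06 to 0.24), narrower than the limit of 0.5 on either side.

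**Figure D3:**
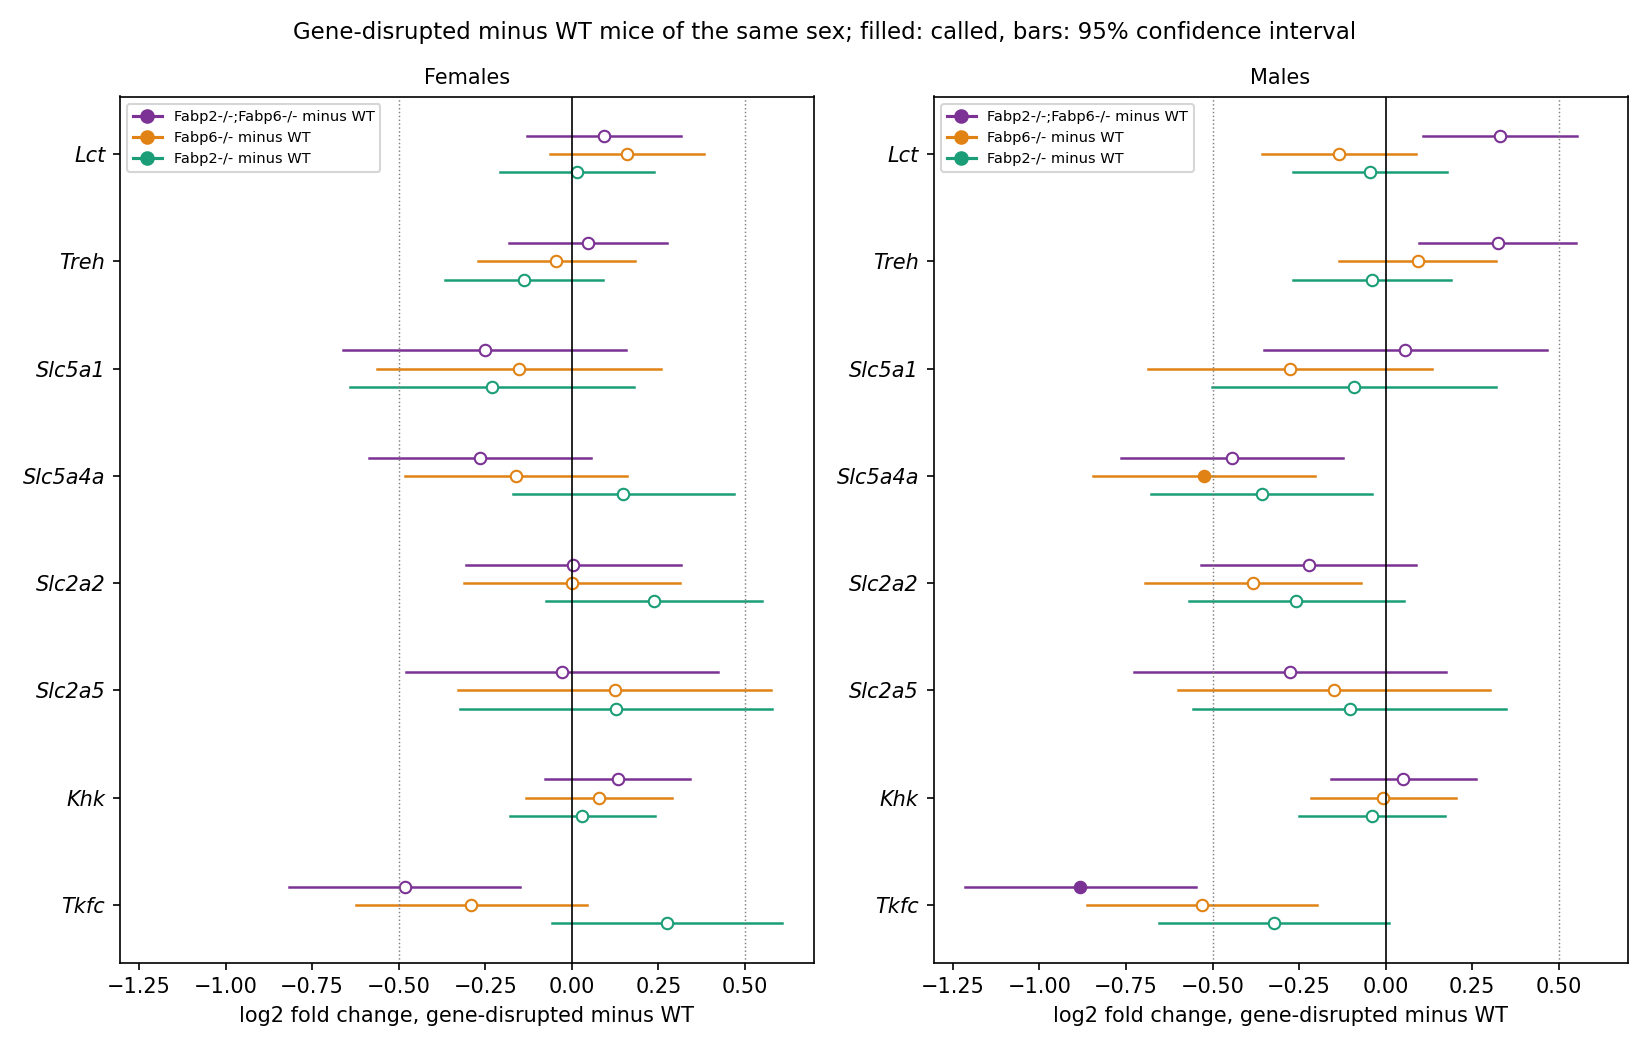
Difference in log2 signal between gene-disrupted and WT mice (x axis) for the 8 sugar genes, in females (left) and males (right), with points for the 3 disruptions, bars for 95% intervals of the limma fit and filled points for calls. The filled points are *Tkfc* in *Fabp2*-/-;*Fabp6*-/- males (-0.88) and *Slc5a4a* in *Fabp6*-/- males (-0.53).

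In the 6 same-sex comparisons of disrupted with WT mice, 2 of 48 tests of sugar genes were called, both lower and both in males, where 2.03% (*Fabp2*-/-;*Fabp6*-/-) and 0.492% (*Fabp6*-/-) of all genes were called. The medians over the 8 genes were -0.09 in *Fabp2*-/-;*Fabp6*-/-, -0.21 in *Fabp6*-/- and -0.10 in *Fabp2*-/- males, and -0.01, -0.02 and 0.08 in females of these genotypes. The medians over all genes stayed between -0.01 and 0.02 in all 20 comparisons. *Fabp2*-/- alone gave 0 calls in either sex, beside 0.734% of genes in males and 0.654% in females, and *Fabp6*-/- females gave 0 beside 0.428%. At an unadjusted p under 0.05 the counts in males were 4 of 8 in *Fabp2*-/-;*Fabp6*-/- (13.8% of all genes), 3 in *Fabp6*-/- (9.44%) and 1 in *Fabp2*-/- mice (7.95%). In females they were 1 (12% of all genes), 0 (8.88%) and 0 (7.77%) in the same order of genotypes. Over both sexes 0 of 8 were called in *Fabp6*-/- (0.387% of genes) and *Fabp2*-/- mice (0.702%) against WT, and 0 in *Fabp2*-/-;*Fabp6*-/- against *Fabp6*-/- mice (1.4%). These comparisons share their WT pools within a sex.

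With sex, 3 of 32 tests were called within genotypes, all higher in females: *Slc5a4a* in *Fabp6*-/- and *Fabp2*-/- mice and *Lct* in *Fabp6*-/- mice. Averaged over genotypes, 7 of the 8 genes had positive values, with a median of 0.10, and only *Slc5a4a* was called. Among these 7 were *Slc5a1* (0.0006) and *Slc2a5* (0.006), and the share of all genes with a positive value was not counted. None of the 24 tests of whether the sex difference changed with a disruption was called, with adjusted p of 0.626 or more, beside 0.0323% of genes for *Fabp2*-/- and 0.00807% for each of the other disruptions. At an unadjusted p under 0.05, 3 of 8 did so for Fabp2 loss (*Tkfc* 0.60, *Slc5a4a* 0.51 and *Slc2a2* 0.50), where 5.03% of all genes did. For the non-additive effect of losing both proteins 0 of 8 were called, beside 1.73% of genes.

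**Figure D4:**
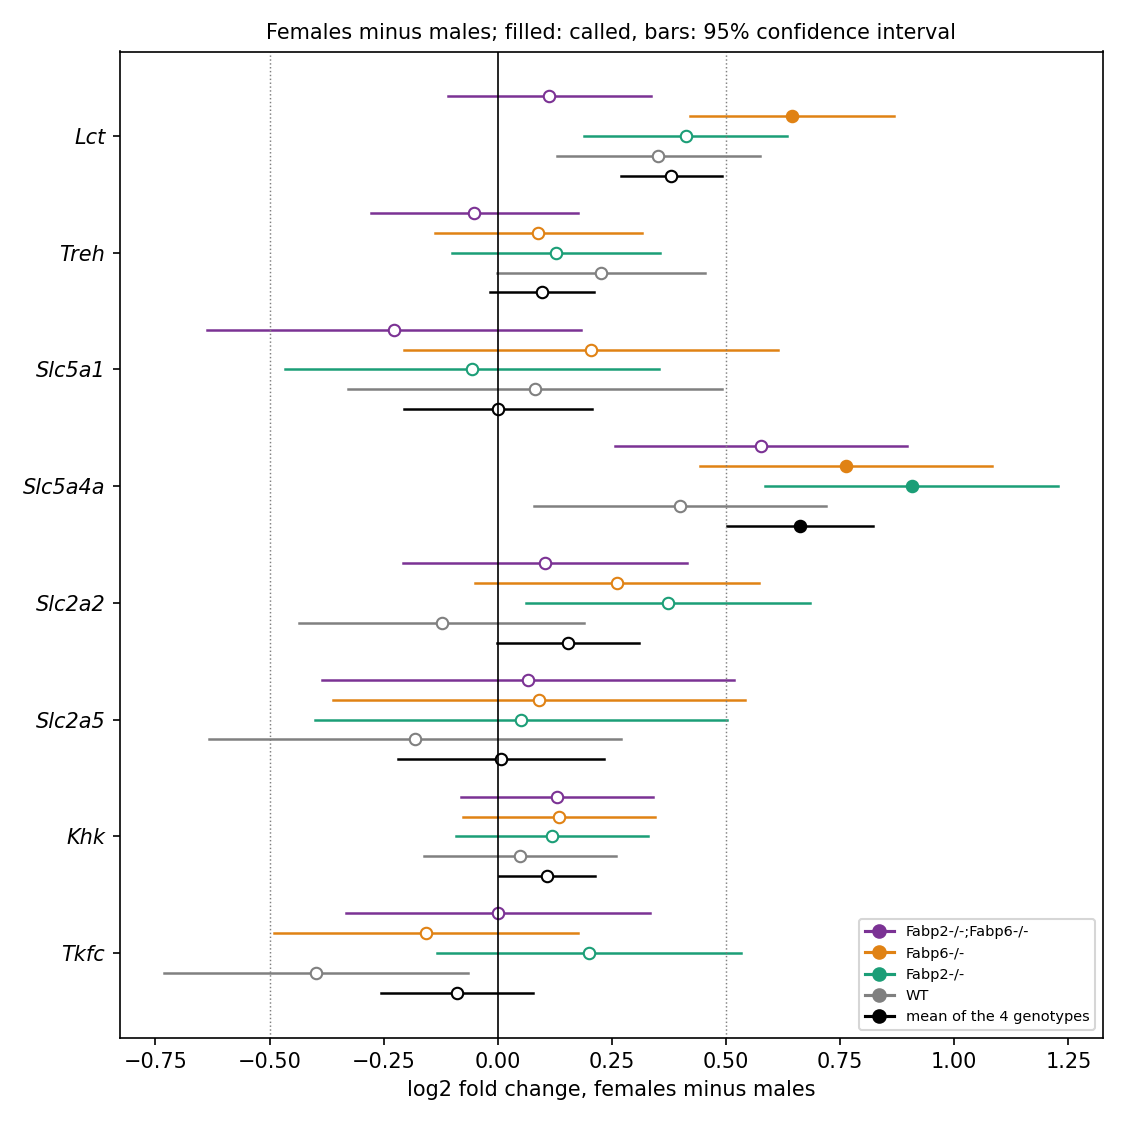
Female minus male difference in log2 signal (x axis) for the 8 sugar genes in each genotype and averaged over genotypes, with bars for 95% intervals of the limma fit, filled points for calls and dotted lines at the limit of 0.5. The filled points are *Slc5a4a* in *Fabp2*-/- (0.91) and *Fabp6*-/- mice (0.76) and on average (0.66), and *Lct* in *Fabp6*-/- mice (0.64).

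Over the 16 pools *Slc5a4a* went with *Slc2a2* (Pearson r = 0.69) and *Lct* (0.68), *Lct* with *Treh* (0.59), and *Slc2a5* with *Slc5a1* and *Slc2a2* (0.57 each), whereas *Khk* and *Tkfc*, consecutive kinases of fructose breakdown, gave -0.23. Once group means were removed, *Slc5a4a* and *Lct* kept 0.77, *Slc2a5* and *Slc5a1* 0.77, and *Khk* and *Tkfc* had 0.49, while *Lct* and *Treh* had 0.10. The genes were read on the same arrays and the pools share groups, so these are descriptions. Among 12393 other genes, the nearest to *Slc5a4a* were *Xist* (0.84), *Kctd14* (0.82) and *Fzd9* (0.81), to *Lct* *Cubn* (0.90), *Fbln1* (0.88) and *Ppme1* (0.86), and to *Tkfc* *Ogt* (0.93), *Jund* (0.91) and *Mark2* (0.87).

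Other genes of sugar handling were read through lists. Of the other sugar transporters and their regulators, 18 of 21 were measured, with 7 calls higher and 1 lower over the 20 comparisons, among them those of *Slc5a4b* above. *Slc5a8*, a sodium-coupled carrier of short fatty acids and lactate, rose by 0.58 in *Fabp2*-/- against WT mice of both sexes, beside 0.676% of genes on both chips. Of the genes of fructose breakdown, the polyol pathway and the triose steps, 23 of 29 were measured, with 0 calls higher and 4 lower. *Pklr*, the pyruvate kinase of liver and gut, fell by 0.70 in *Fabp2*-/-;*Fabp6*-/- males against WT males (adjusted p = 0.00103) and was 0.66 lower in WT females than WT males (adjusted p = 0.00805). The other 2 were *Pfkp*, a phosphofructokinase (-0.66 in *Fabp2*-/-;*Fabp6*-/- against *Fabp6*-/- mice, and -0.72 without the pool labelled *Fabp6*-/- female replicate 2), and *Hk2*, a hexokinase (-0.69 for the non-additive effect, and -0.84 without that pool).

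Of the genes of glucose release, 7 of 8 were measured, with 6 calls higher and 7 lower over 20 comparisons that share pools. *G6pc*, which frees glucose from its phosphate, was 0.99 higher in *Fabp2*-/-;*Fabp6*-/- than in *Fabp2*-/- mice of both sexes (adjusted p = 0.00355). The *Fabp2*-/- mice were themselves called lower than WT mice, with -0.67 over both sexes and -1.07 in males. With 1 pool left out these values ran from -0.83 to -0.51 and from -1.11 to -1.03, and neither call was kept in every such fit. *G6pc* was not called in *Fabp2*-/-;*Fabp6*-/- against WT mice. *Pck1*, which feeds gluconeogenesis, fell by 0.80 in *Fabp6*-/- against WT mice of both sexes (430B probe set, adjusted p = 0.00793), beside 0.363% of genes on both chips. Without the pool labelled *Fabp6*-/- female replicate 2 it was -0.84. The 430A probe set of *Pck1* was not called in this comparison. *Pck1* was also 0.55 higher in females on average (430A probe set, adjusted p = 0.0591), which was not called without male replicate 1 of *Fabp2*-/- (0.49), *Fabp6*-/- (0.41) or *Fabp2*-/-;*Fabp6*-/- mice (0.47) and was 0.54 without the pool that goes against its label. On the 430B probe set this difference was 0.51, and its call was lost in 7 of 16 fits that left out 1 pool, that pool among them (0.49).

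Of the transcription factors known to act on these genes, 18 of 21 were measured, with 4 calls higher and 2 lower. *Mlxipl*, which encodes the carbohydrate sensor ChREBP, rose by 0.68 in *Fabp6*-/- against WT mice of both sexes (adjusted p = 0.000292) and was 0.68 lower in *Fabp2*-/-;*Fabp6*-/- than in *Fabp6*-/- mice. Without the pool labelled *Fabp6*-/- female replicate 2 these values were 0.73 and -0.73. *Cdx2*, the intestinal identity factor, rose by 0.56 in *Fabp2*-/-;*Fabp6*-/- males against WT males (adjusted p = 0.0439), a call lost without *Fabp2*-/-;*Fabp6*-/- male replicate 1 (0.40) or WT male replicate 1 (0.36). Of the galactose genes 8 of 10 were measured, with 1 call higher and 0 lower, for *Pgm2* (0.52 for the non-additive effect, called in 11 of 16 fits that left out 1 pool, and 0.54 without the pool that goes against its label). No median of these lists left the range of -0.27 to 0.35 in any comparison.

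Markers of neighbouring tissues and of regions moved with some of these groups, and their part in the results was not tested. Stomach markers (8 of 8 measured) averaged 9.30 to 9.83 in *Fabp2*-/-;*Fabp6*-/- and 9.29 to 9.63 in *Fabp6*-/- pools, against 8.33 to 9.27 in WT pools. Both of these disrupted genotypes also had a lower mean *Tkfc* signal than WT mice. The *Fabp2*-/- pools were not part of this comparison. Of these markers, 5 were called higher in *Fabp2*-/-;*Fabp6*-/- and 4 in *Fabp6*-/- mice of both sexes, beside 0.967% and 0.363% of all genes on both chips. T lymphocyte markers (6 of 7 measured) averaged 6.94 to 7.20 in *Fabp2*-/-;*Fabp6*-/- against 7.41 to 7.61 in WT pools, and 4 of them were called lower, beside the same 0.967% of genes. The *Fabp2*-/- pools, with 7.12 to 7.30, also lay below all WT pools, while *Fabp6*-/- pools averaged 7.29 to 7.81. Ileal markers (8 of 8 measured) averaged 8.50 to 8.82 in females against 8.39 to 8.61 in males. By genotype they averaged 8.55 to 8.82 in *Fabp2*-/-;*Fabp6*-/-, 8.47 to 8.74 in *Fabp6*-/- and 8.39 to 8.68 in *Fabp2*-/- pools, against 8.41 to 8.54 in WT pools. The ileal endocytic receptor gene *Cubn*, the nearest companion of *Lct*, is itself 1 of these 8 markers and enters their average. It was 0.89 higher in females on average (adjusted p = 2.99e-05), and 0.86 without the pool that goes against its label. The average of the ileal markers without *Cubn* was not computed, so a shift of the list apart from *Cubn* is not shown. Enteroendocrine markers (8 of 8 measured) averaged 8.15 to 8.28 in females against 8.14 to 8.29 in males of *Fabp2*-/-;*Fabp6*-/- mice, 8.10 to 8.20 against 7.88 to 7.89 in *Fabp6*-/- mice, 8.12 to 8.16 against 7.88 to 8.10 in *Fabp2*-/- mice, and 8.12 in both female pools against 7.93 to 7.97 in male pools of WT mice. The female averages lay above the male ones in *Fabp6*-/- and WT mice and, by a narrow margin, in *Fabp2*-/- mice. Single genes had such a separation in 12% (*Fabp6*-/-), 16.6% (WT) and 17.9% (*Fabp2*-/-) of cases, and no share was counted for averages of lists. In every *Fabp2*-/-;*Fabp6*-/- pool the enteroendocrine average also lay above that of every WT pool. Of the enteroendocrine markers 0 were called in any of the 20 comparisons. Proximal markers (8 of 8 measured) averaged 8.38 to 8.52 in females against 8.43 to 8.56 in males. Liver markers (5 of 6 measured) averaged 6.11 to 6.55 in *Fabp6*-/- females against 5.56 to 5.65 in *Fabp6*-/- males, and 6.01 to 6.63 in *Fabp2*-/-;*Fabp6*-/- against 5.54 to 6.01 in WT pools.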

How the data were processed

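Per the labels and the methods, the authors made cDNA probes from total RNA of 16 pools of small intestine, each of RNA from 2 mice, and hybridised each pool to the 430A and 430B chips. The deposited values are log2 signals after RMA with background correction and quantile normalisation, made separately for the chips. The RMA version is not given in the sources used here. Fold changes are differences of these log2 values, and p-values measure the spread between pools.

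For each chip, 1 probe set per Entrez gene (largest interquartile range) was kept, giving 12394 genes on 430A and 9612 on 430B. A model of 8 group means over 16 pools was fitted with limma 3.58.1 in R 4.3.3 (8 residual degrees of freedom), with two-sided moderated tests and Benjamini-Hochberg adjustment per chip and comparison. Calls needed an FDR under 0.2 and a log2 fold change over 0.5 in size. The 20 comparisons set each disruption against WT within a sex and over both sexes, females against males within a genotype and on average, the change of that difference with genotype, and double against single disruption, with its non-additive part. The fit was checked on simulated data.

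The 9 genes, the gene and marker lists and the rules were chosen with earlier results of these data known. Named beside the 9 genes are up to 4 called genes of a list in a comparison, those of largest change, *Slc5a4b*, *Mgam*, and the 3 genes with the nearest pattern to each called gene. Alternatives were the probe set per gene, filters on spread and signal, only the arrays compared, adjustment over both chips, an intensity trend, cyclic loess, the replicate number as a block, the series matrix values, FDR under 0.05, no limit on the change, and each pool left out. Over 100 probe sets on both chips, 14 of 16 pools matched best with themselves. Promoter sequences came from RefSeq (GRCm38.p6). Precision is limited by the number of arrays, 2 pools per group.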

Additional observations from a re-analysis of the deposited data

Results flagged for a closer look

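Of 54 sets of pools searched for a pool far from the rest, 2 stood out, about as many as the chance rate of 1 in 20 gives. Both were sets of the 4 *Fabp6*-/- pools, and in both the pool was *Fabp6*-/- female replicate 1. *Khk* read 10.46 there, against 10.18 to 10.21 in the other 3 *Fabp6*-/- pools. *Slc5a1* read 10.26 there (the probe set with the larger spread), against 9.82 to 9.84 in the others. Neither gene was called in any comparison.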

How the results depend on the processing

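The called changes of *Tkfc* in *Fabp2*-/-;*Fabp6*-/- males, over both sexes and against *Fabp2*-/- mice, the mean sex difference of *Slc5a4a* and that of *Lct* in *Fabp6*-/- mice kept their direction and call in all 28 alternatives. Counts of sugar genes moved more. In same-sex comparisons of disrupted with WT mice 2 were called, against 1 with the probe set of highest mean signal, with all probe sets, with adjustment over both chips, with cyclic loess and at FDR under 0.05, and 1 to 4 with 1 pool left out (4 without WT female replicate 1 or *Fabp2*-/-;*Fabp6*-/- male replicate 2). Female against male within a genotype gave 2 to 4 with 1 pool left out, against 3. Disrupted against WT over both sexes gave 1 to 2, against 1 (2 without WT female replicate 1 or *Fabp6*-/- female replicate 1). With no limit on the fold change, chosen after seeing the data, the counts were 6 for same-sex comparisons with WT, 2 for the mean sex difference, 5 over both sexes and 5 for double against single disruption. *Slc2a2* in *Fabp2*-/-;*Fabp6*-/- against WT males reversed, with 0.084 without *Fabp2*-/-;*Fabp6*-/- male replicate 1, against -0.22 with all pools and -0.53 without replicate 2. The cause was not tested. The replicate numbers did not pair the pools: over 28 pairs of groups the correlation of their deviations ran from -0.26 to 0.34, with 1 over 0.1. With the replicate block the counts were unchanged, at 2 in same-sex comparisons, 3 for sex within genotypes, 0 for its change with genotype, 1 each for the mean sex difference, both sexes and double against single disruption, and 0 for the non-additive effect.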
